A study of Mus musculus with 6 samples.

Results

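The chaperones and folding enzymes of the endoplasmic reticulum (ER), together with the genes of its stress response, were followed in alveolar type II cells, the surfactant-secreting cells of the lung alveolus, after deletion of Stat3. The set held 32 genes chosen by name for their known roles and was measured by every probe set of the array that is annotated to one of these genes alone, which gave 76 of the 45037 probe sets tested and 32 of the 18193 genes with such a probe set. None of the 32 shared a probe set with another gene. They were chosen with earlier results of these data known. The Stat3Δ/Δ mice carried the transgenes SP-C-rtTA and (tetO)7CMV-Cre on Stat3flx/flx alleles. In them the surfactant protein C promoter drives the doxycycline-dependent activator, so that Cre acts in respiratory epithelial cells. The controls were littermates that keep Stat3: their source label names both transgenes, SP-C-rtTA and (tetO)7CMV-Cre, without floxed alleles, while the study's methods give a single transgene with the floxed Stat3 alleles. Dams of both groups received doxycycline in the food from conception through the first weeks after birth. No source used here gives the strain. Cells were taken at 8 weeks of age. Each RNA came from a pool of 3 mice, with 3 Stat3Δ/Δ pools and 3 control pools, each on its own MOE430 array. Type II cells make up most of such an isolate by the study's methods, with macrophages as the main other cell, and RNA was taken 2 hours after isolation. In a mixed isolate, fewer cells of a type and less RNA per cell cannot be told apart.

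Proteins bound for secretion fold in the ER with the help of HSP70 and HSP90 chaperones, lectin chaperones and disulfide isomerases. When unfolded proteins build up, the sensors IRE1 (Ern1), PERK (Eif2ak3) and ATF6 raise these helpers through the factors XBP1, ATF4 and CHOP (Ddit3), and proteins that fail to fold are drawn back into the cytosol and degraded. Type II cells secrete large amounts of protein and lipid, and misfolding mutants of surfactant protein C are a known cause of ER stress in them.

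The values are Affymetrix signals on a linear scale, which the authors had scaled to the same trimmed mean on each array. A value of 70 was added to each signal before the log2 step and quantile normalization, so that fold changes of dim probe sets are understated. Fold changes are log2 of Stat3Δ/Δ over control. Each gene was represented by its brightest probe set, the one with the highest mean over the 6 arrays, and the other probe sets were described beside it. In the sample titles, Stat3Δ/Δ pools 1 and 2 share a leading number with control pool 3, control pools 1 and 2 share another, and Stat3Δ/Δ pool 3 shares none. No source used here says what the number stands for. Only the first is held by arrays of both groups, so the fold change within its 3 arrays is given for the members where it bears on a value. The log2 ratio of 3′ to 5′ control probe sets for Gapdh, a measure of RNA integrity, was -0.49, -0.30 and -0.45 in Stat3Δ/Δ pools 1 to 3 and 0.27, 0.03 and -0.25 in control pools 1 to 3. For Actb it was 0.42, 0.34 and 0.42 in the Stat3Δ/Δ pools and 0.81, 0.64 and 0.47 in the control pools, so that control pools 1 and 2 had the highest ratios of both.

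The label of type II cells was checked against their markers. Of 12 listed genes 11 were measured, with Sftpc, the surfactant protein that only these cells make, at signals of 94431 to 129372 over the 6 arrays, and their summed signal was 701948 to 944616 in the Stat3Δ/Δ pools and 856298 to 938045 in the controls. Of 10 macrophage markers 9 had a log2 fold change above 0, and their sum was 262247 to 320164 in the Stat3Δ/Δ pools and 233611 to 253987 in the controls. The 5 measured neutrophil markers summed to 20884 to 28215 against 4950 to 13198. The sums of 10 ciliated cell markers (16834 to 23466 against 31024 to 43034) and 10 fibroblast markers (5994 to 11800 against 16940 to 33838) were lower in the Stat3Δ/Δ pools. Airway secretory markers overlapped between the groups, at 321403 to 462466 in the Stat3Δ/Δ pools and 427643 to 536959 in the controls. So did those of B and plasma cells, a cell type rich in ER chaperones, at 41817 to 67048 and 60543 to 68497, and those of T cells (4500 to 7618 and 2331 to 25881) and endothelial cells (10906 to 13493 and 12373 to 16538). Of the 10 B and plasma cell markers 8 had a log2 fold change above 0 and 2 below, with a median of 0.34. Sdc1, below 0 at -0.24, had signals of 31643 to 61396.5 and so carried much of their sum. Of the 8 airway secretory markers 7 lay below 0, with a median of -0.58. Scgb1a1, at 0.01, had signals of 125146 to 159179.5 and so carried much of that sum. All 6 T cell markers lay below 0, with a median of -0.295. The part of these other cells in the values below was not tested. Of the 4 probe sets for Stat3, the targeted gene, 1460700_at and 1426587_a_at lay lower on every Stat3Δ/Δ array than on any control array, with log2 fold changes of -0.80 and -0.71. The other two gave -0.05 and 0.60, and which exons the 4 probe sets read was not analysed here.

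No member of the ER set met the study's thresholds in Stat3Δ/Δ cells. Of the 76 member probe sets 0 met all 3 limits in limma (p up to 0.05, FDR up to 10%, fold 1.5 or more), against 1 of the 45037 probe sets tested (0.00222%). The smallest adjusted p of a member was 0.522. The 2 lower probe sets of Stat3 itself did not meet the limits either (limma adjusted p = 0.502 and 0.532). A fit with so few calls cannot show that the members were unchanged. The study left out the FDR for mRNAs that changed alike in several probe sets, a condition not applied here. Without the FDR 7 member probe sets passed the p and the fold, and the same number had p up to 0.05. Of these, 6 were higher in Stat3Δ/Δ cells, 7.89% of the 76, where 4.14% of all probe sets passed in that direction. The one that was lower stood against 4.22% of all probe sets. By brightest probe set 0 of the 32 genes passed in either direction, where 2.15% of all genes passed as higher and 5.54% as lower.

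The 7 were all among the dimmer probe sets of their genes. Of the 44 member probe sets that are not the brightest of their gene, 6 were higher, or 13.6%, and 1 was lower, where 5.82% of all such probe sets passed as higher and 3.4% as lower. Their median log2 fold change was 0.15, against -0.04 for the 32 brightest. The same gap, smaller, ran through the array, with 0.04 for all probe sets that are not the brightest and -0.09 for all genes by their brightest. The count of 6 rested on single pools: it was 2 with Stat3Δ/Δ pool 1, or with control pool 1 or 2, left out, and 3 with Stat3Δ/Δ pool 3 left out. It was also 3 when that title number entered the fit as a block, but only 2 of these, of Dnajc3 and Atf6, were among the 6. The third was a probe set of Ern1, and 1 probe set, of Ddit3, was lower there. The shares of all probe sets in these fits are not given here, so their counts cannot be read as a trait of the members.

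**Figure D1:**
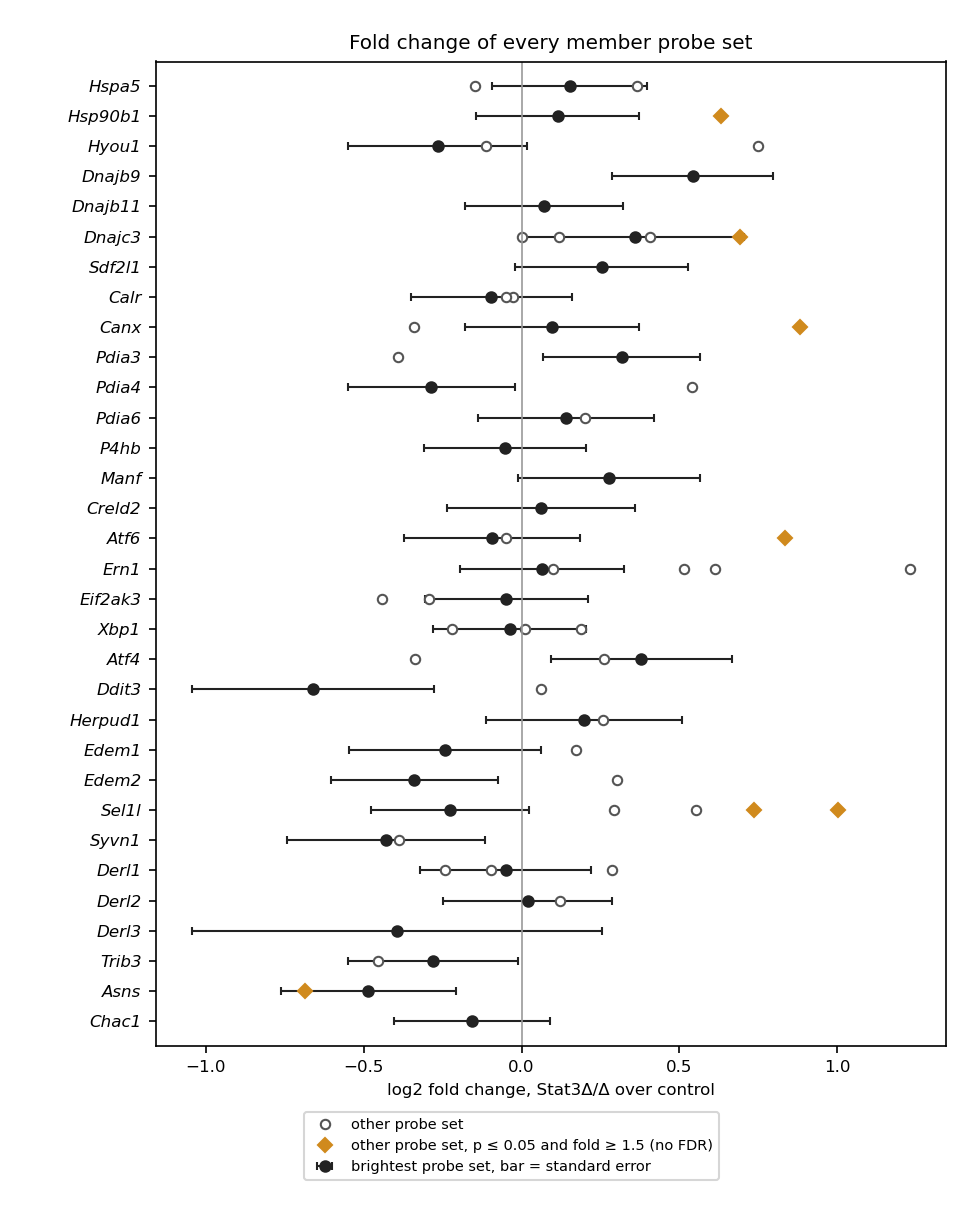
Log2 fold change of Stat3Δ/Δ over control for each of the 76 member probe sets, by gene from chaperones at the top to ATF4 targets at the bottom. Filled circles with bars are each gene's brightest probe set and its standard error, open circles are its other probe sets, and diamonds are the 7 that passed the p and the fold without the FDR, none of which is the brightest of its gene.

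Among the 32 genes 15 had a log2 fold change above 0 and 17 below, from -0.66 for Ddit3 to 0.54 for Dnajb9, with a median of -0.04. The median over all genes was -0.09. With the arrays centred on their medians in place of quantile normalization, 6 members lay above 0 and 26 below, at a median of -0.21 where all genes had -0.18, so the sign of a member near 0 depends on the scaling. The sign also turned in 14 of the 32 genes with at least 1 single pool left out, and in 5 of the 24 genes with several probe sets when their mean replaced the brightest (Hyou1, Pdia3, Pdia4, Atf6 and Sel1l). With that mean the median of the members was 0.07. Of the 24 genes with several probe sets, 6 had all of them above 0, 5 had all below 0 and 13 had both signs. Over all 76 probe sets the Stat3Δ/Δ pools lay entirely above the controls in 5, against 5.99% of all probe sets, and entirely below in 1, against 7.66%. That 1 is a probe set for Atf4 whose signals, from 38.5 to 74.5, lie near or under the added value.

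None of the HSP70 and HSP90 chaperones and their co-chaperones passed the test by its brightest probe set. Of these 7 genes 6 had a log2 fold change above 0, with a median of 0.15, but only 3 of 7 did with the arrays centred on their medians (median -0.08). Dnajb9, which encodes ERdj4, a J-domain partner of BiP that binds misfolded surfactant protein C, was the only member gene whose groups did not overlap by the brightest probe set. Its signals were 57498, 58030.4 and 49612 in Stat3Δ/Δ pools 1 to 3, against 41864, 37007 and 43522 in control pools 1 to 3. Every Stat3Δ/Δ pool lay above every control pool, with Stat3Δ/Δ pool 3 the nearest to them. Such an order, held by 1 of the 32 genes, was found in 5.99% of all probe sets. Its share over all genes by brightest probe set is not given here, so Dnajb9 is not shown to stand out. The log2 fold change was 0.54, a fold of 1.46 that lies under the 1.5 threshold (limma SE 0.26, adjusted p = 0.619). It was 0.51 within the arrays that share the title number, lay between 0.46 and 0.68 when single pools were left out, and was 0.29 with the arrays centred on their medians.

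Hspa5 encodes BiP, the main HSP70 of the ER and the usual gauge of the stress response. Its brightest probe set gave 81996, 80807 and 89895 in Stat3Δ/Δ pools 1 to 3 and 99460.4, 71251 and 74810 in control pools 1 to 3. Control pool 1 was the highest of all 6 arrays and the other controls were the lowest, so the groups overlapped. The log2 fold change was 0.15 (limma SE 0.24, adjusted p = 0.896), and it turned to -0.09 with the arrays centred on their medians. Hsp90b1 encodes GRP94, the HSP90 of the ER. Its brightest probe set gave 33172, 33833 and 25792 in the Stat3Δ/Δ pools and 32377, 31172 and 27216 in the controls, a log2 fold change of 0.11 (limma SE 0.26, adjusted p = 0.933) that turned to -0.12 under the same centring and was 0.36 within the shared title number. A dimmer one, 1438040_a_at, gave 18109, 11641 and 14307 in the Stat3Δ/Δ pools and 9835, 9165 and 9750.1 in the controls, with no overlap and Stat3Δ/Δ pool 1 well above the rest. Its log2 fold change was 0.63 (limma SE 0.27, adjusted p = 0.591) and 0.60 within the shared title number. It missed the p or the fold with any pool but Stat3Δ/Δ pool 2 left out, down to 0.42 without Stat3Δ/Δ pool 1, so that the probe sets of Hsp90b1 differ and neither passed the FDR.

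Dnajc3 encodes p58IPK, a co-chaperone of BiP that also restrains PERK. Its 5 probe sets ran from 0.00 to 0.69. The dimmest, 1449373_at, gave 1437, 1132 and 825 in Stat3Δ/Δ pools 1 to 3 and 530.1, 831 and 552 in control pools 1 to 3, where Stat3Δ/Δ pool 3 and control pool 2 were alike and the other pools apart. The log2 fold change was 0.69 (limma SE 0.30, adjusted p = 0.585). It was 1.17 within the shared title number, and missed the thresholds with Stat3Δ/Δ pool 1 or 2 left out (0.53 or 0.68), as with control pool 1 or 3 left out (0.66 or 0.54). The brightest, at 12136, 8561 and 5359 in the Stat3Δ/Δ pools and 7979, 6194 and 5870 in the controls, had its highest and its lowest value within the Stat3Δ/Δ group, and gave 0.36 (limma SE 0.35, adjusted p = 0.811), but 0.83 within the shared title number, where Stat3Δ/Δ pool 3 is not held. Sdf2l1 (0.25), a partner of the ER J-domain proteins, and Dnajb11 (0.07), which encodes ERdj3, lay above 0 as well. Hyou1, which encodes GRP170, a nucleotide exchange factor of BiP, gave -0.27 by its brightest probe set and 0.75 by the dimmest.

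Of the lectin chaperones, which hold newly glycosylated proteins, neither passed the test by its brightest probe set. Calr, calreticulin, gave 34609, 41052 and 54283 in Stat3Δ/Δ pools 1 to 3 and 59983, 51093 and 40723 in control pools 1 to 3, a log2 fold change of -0.10 (limma SE 0.26, adjusted p = 0.947). The spread within each group was larger than the difference between them. Canx, calnexin, had 1 probe set among the 7: 1422845_at gave 7529.9, 6713 and 5466 in the Stat3Δ/Δ pools and 1998, 3687 and 5575 in the controls, where control pool 3 lay above Stat3Δ/Δ pool 3. The log2 fold change was 0.88 (limma SE 0.37, adjusted p = 0.582), and 0.34 within the shared title number. It kept the thresholds with 1 pool left out only when that pool was control pool 3, and was 0.52 without control pool 1. The low controls here, pools 1 and 2, are those with the highest 3′ to 5′ ratios, and the part of RNA integrity in the result was not tested. The other probe sets of Canx gave 0.10 for the brightest and -0.34 for the dimmest.

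The 4 disulfide isomerases split evenly, with Pdia3 (0.32) and Pdia6 (0.14) above 0 and Pdia4 (-0.29) and P4hb (-0.05) below, though Pdia6 turned to -0.05 with the arrays centred on their medians. Pdia3, the partner of the lectin chaperones, gave 27054, 27659 and 30621 in the Stat3Δ/Δ pools and 23989, 21192 and 28247 in the controls, and its difference was 0.01 within the shared title number. Pdia4 gave -0.65 there, and Pdia6 0.32. P4hb, the founding member of the family, lay between 38973 and 55442 in the Stat3Δ/Δ pools and between 40525 and 63279 in the controls. The secreted stress proteins Manf (0.28) and Creld2 (0.06) lay above 0, and Creld2 turned to -0.09 under that centring, while within the shared title number they gave 0.53 and 0.36. For both, control pool 1 was the highest array and control pool 3 the lowest. No probe set of these 6 genes passed p up to 0.05.

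Of the sensors, none passed the test by its brightest probe set. Ern1, the IRE1 kinase and nuclease, gave 5458, 4987 and 7255 in Stat3Δ/Δ pools 1 to 3 and 6231, 5565 and 5083 in control pools 1 to 3, a log2 fold change of 0.07 (limma SE 0.26, adjusted p = 0.967). Eif2ak3, the PERK kinase, gave 5012, 3365 and 4440.1 in the Stat3Δ/Δ pools and 4645, 4377 and 4120.1 in the controls, a log2 fold change of -0.05 (limma SE 0.26, adjusted p = 0.978). Atf6, the membrane-bound factor released by proteolysis, gave 3663, 2763 and 2362 in the Stat3Δ/Δ pools and 3563, 2465 and 3246 in the controls, a log2 fold change of -0.09 (limma SE 0.28, adjusted p = 0.954). In all 3 genes the groups overlapped across most of their range.

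A dim probe set of Atf6 behaved otherwise. 1453288_at gave 559, 436 and 450.4 in Stat3Δ/Δ pools 1 to 3 and 258, 255 and 135.0 in control pools 1 to 3, with every Stat3Δ/Δ pool above every control pool and control pool 3 lowest. Its log2 fold change was 0.83 (limma SE 0.31, adjusted p = 0.545) and 1.42 within the shared title number. It missed the thresholds with Stat3Δ/Δ pool 1 or 3 left out (0.77 or 0.84), with control pool 3 left out (0.54) and with the added value at the median signal (0.48). The third probe set of Atf6 gave -0.05. Ern1 had a similar dim set just outside the thresholds: 1421240_at gave 465, 364 and 418 in the Stat3Δ/Δ pools and 373, 69.1 and 34.3 in the controls, a log2 fold change of 1.23 (limma SE 0.54, adjusted p = 0.595), with control pool 1 inside the Stat3Δ/Δ range. It was 2.12 within the shared title number, where control pool 1 is not held and the probe set passed the p and the fold, and lay between 0.77 and 1.91 when single pools were left out.

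The transcription factors of the response overlapped between the groups. Xbp1, spliced by IRE1 and the driver of much of the ER's growth in secretory cells, gave 42576, 55838 and 62280.3 in Stat3Δ/Δ pools 1 to 3 and 65872, 55468 and 56756 in control pools 1 to 3, a log2 fold change of -0.04 (limma SE 0.24, adjusted p = 0.982). Its 4 probe sets ran from -0.22 to 0.19, and the spliced form was not measured apart. Atf4, translated when PERK is active, gave 53843, 41146 and 50276 in the Stat3Δ/Δ pools and 53084, 42273 and 28439.9 in the controls, a log2 fold change of 0.38 (limma SE 0.29, adjusted p = 0.75). Control pool 3 alone lay low, as it did for 1438992_x_at, which gave 0.26. The difference of the brightest was 0.83 within the shared title number, which holds that control, and 0.18 with it left out. Ddit3, the gene of the pro-apoptotic factor CHOP, gave 2365, 1366 and 1474 in the Stat3Δ/Δ pools and 3099, 3855 and 1640.3 in the controls. It had the lowest log2 fold change of the 32 genes, -0.66 (limma SE 0.38, adjusted p = 0.689), yet 0.15 within the shared title number, where control pools 1 and 2, the 2 high controls, are not held. Its other probe set, 1443897_at, gave 742.5, 1167 and 500.4 in the Stat3Δ/Δ pools and 387.3, 264.6 and 2421 in the controls, with control pool 3 far above the rest. It had a log2 fold change of 0.06 (limma SE 0.67, adjusted p = 0.989) over all arrays. Within the shared title number it was -1.36, the one member probe set that passed the p and the fold as lower there, so both probe sets of Ddit3 turned sign between these sets of arrays, in opposite directions.

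Genes of ER-associated degradation lay mostly below 0 by their brightest probe sets, with 6 of 8 below and a median of -0.23, and 8 of 8 (median -0.40) with the arrays centred on their medians. Over all 20 probe sets of these genes 11 lay above 0 and 9 below, with a median of 0.07, and 9 lay above 0 under that centring (median -0.09). None of the 8 passed the test by its brightest probe set. Sel1l, the adaptor of the ubiquitin ligase that pulls misfolded proteins out of the ER, was the exception among probe sets. Its brightest, 1436774_at, gave 10475, 12064 and 9809 in Stat3Δ/Δ pools 1 to 3 and 14998, 10936 and 13260.4 in control pools 1 to 3, a log2 fold change of -0.23 (limma SE 0.25, adjusted p = 0.833). The other 4 all lay above 0, from 0.29 to 1.002, and 2 of them were among the 7.

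The first of these, 1430692_a_at, gave 2811, 2908 and 3571 in the Stat3Δ/Δ pools and 1049.7, 1189 and 2445 in the controls. The groups did not overlap, and control pool 3 lay nearer to the Stat3Δ/Δ pools than to the other controls. The log2 fold change was 1.002 (limma SE 0.34, adjusted p = 0.522), the largest of the 7, but 0.21 within the shared title number. The second, 1453559_a_at, gave 838, 837 and 963 in the Stat3Δ/Δ pools and 348, 433 and 635 in the controls, a log2 fold change of 0.74 (limma SE 0.25, adjusted p = 0.526) and 0.39 within the shared title number. Both missed the p threshold with Stat3Δ/Δ pool 3 left out (0.88 and 0.64), as with control pool 1 (0.82 and 0.63) or 2 (0.85 and 0.71) left out. Their lowest arrays, control pools 1 and 2, had the highest 3′ to 5′ ratios of Gapdh and Actb, and the part of RNA integrity was not tested.

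Of the other genes of this group, Syvn1, which encodes the ligase HRD1 itself, gave 3189, 3275 and 4582 in the Stat3Δ/Δ pools and 6603, 5139 and 3514 in the controls, a log2 fold change of -0.43 (limma SE 0.31, adjusted p = 0.743) and -0.13 within the shared title number. Derl3, a derlin of the channel, had the widest spread of the 32, with 133, 669 and 1275 in the Stat3Δ/Δ pools and 731, 649 and 577 in the controls, and gave -0.40 (limma SE 0.65). It turned to 0.42 with Stat3Δ/Δ pool 1 left out and was -1.04 with Stat3Δ/Δ pool 3 left out, so its direction rests on 1 pool. Edem2 (-0.34) and Edem1 (-0.24), which trim mannose from proteins marked for disposal, lay below 0 by their brightest probe sets and above 0 by their other ones. Derl1 (-0.05) and Derl2 (0.02) lay close to 0, but at -0.42 and 0.29 within the shared title number. Herpud1 (0.20, or -0.03 with the arrays centred on their medians), a stress-induced partner of HRD1, was highest on Stat3Δ/Δ pool 3 and control pool 1, at 52499 and 52804, and between 26069 and 33739.5 on the other 4 arrays.

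The targets of ATF4 and CHOP were the only group in which every probe set had a log2 fold change below 0, all 5 over 3 genes, with a median of -0.46. The 5 stayed below 0 without normalization between arrays (median -0.45), with the arrays centred on their medians (-0.59) and within the shared title number (-0.30). None passed the FDR. Asns, asparagine synthetase, a standard readout of the amino acid response, gave the lower member of the 7. Its probe set 1433966_x_at gave 1626, 1891 and 2556 in Stat3Δ/Δ pools 1 to 3 and 3669.7, 3573 and 2538 in control pools 1 to 3, where Stat3Δ/Δ pool 3 and control pool 3 met in the middle. The log2 fold change was -0.69 (limma SE 0.30, adjusted p = 0.59), and -0.53 within the shared title number. It missed the thresholds with Stat3Δ/Δ pool 1 or 2 left out (-0.53 or -0.65), as with control pool 1 or 2 left out (-0.58 or -0.61).

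The brightest probe set of Asns divided the arrays likewise, with 3325, 2609.8 and 4096 in the Stat3Δ/Δ pools and 4930.0, 5112 and 3896 in the controls, and a log2 fold change of -0.49 (limma SE 0.28, adjusted p = 0.685). Trib3, a pseudokinase induced by ATF4 and CHOP, gave 1924, 1629 and 2435 in the Stat3Δ/Δ pools and 2579, 2499 and 2092 in the controls, a log2 fold change of -0.28 (limma SE 0.27, adjusted p = 0.808). Chac1, which degrades glutathione, gave 3767, 3535 and 4202.5 in the Stat3Δ/Δ pools and 4882, 4306 and 3681 in the controls, a log2 fold change of -0.16 (limma SE 0.25, adjusted p = 0.893) that was -0.03 within the shared title number. In each of these genes Stat3Δ/Δ pool 3 lay above control pool 3, against the sign of the fold change.

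**Figure D2:**
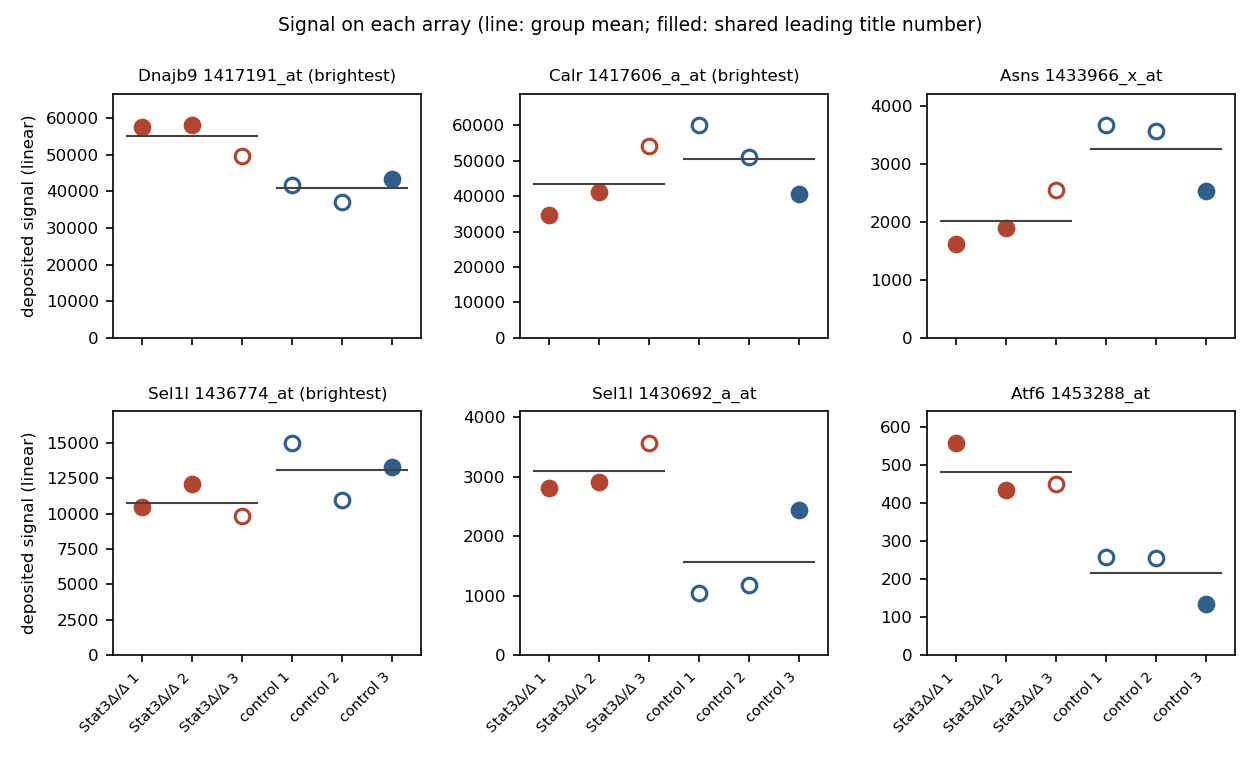
Deposited linear signal of 6 member probe sets on each array, with Stat3Δ/Δ pools in red, control pools in blue, a line at each group mean and filled points for the 3 arrays of the shared title number. Dnajb9 did not overlap between the groups, Calr and Asns were lowest on filled points of both groups, and the brightest and a dimmer probe set of Sel1l ran in opposite directions (-0.23 and 1.002 on the log2 scale).

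The arrangement seen in the targets of ATF4 recurred in other members by their brightest probe sets. In 12 of the 32 genes (37.5%) the 3 arrays that share the title number, Stat3Δ/Δ pools 1 and 2 and control pool 3, all lay below Stat3Δ/Δ pool 3 and control pools 1 and 2, where 14.2% of all genes did so. On the deposited signals, before quantile normalization, the count was 11 (34.4%, against 11.3% of all genes). The 12 were Hyou1, Calr, Pdia6, P4hb, Ern1, Edem2, Syvn1, Derl2, Derl3, Trib3, Asns and Chac1, and Derl3 was the one that dropped out on the deposited signals. By role they took in 3 of 3 ATF4 and CHOP targets, 4 of 8 genes of ER-associated degradation and 2 of 4 disulfide isomerases, but 1 of 7 HSP70, HSP90 and co-chaperone genes and 1 of 6 sensors and factors. The reverse order held for 1 gene, Canx, where 7.94% of all genes showed it. Over all 76 member probe sets the 3 arrays lay below the others in 18 (23.7%) and above them in 5. The share over all probe sets of the array is not given here. Another probe set repeated the order in Calr, Syvn1, Trib3 and Asns. In Hyou1, Pdia6, Ern1, Edem2 and Derl2 no other probe set did, and Ern1 1438583_at showed the reverse. This division of the arrays crosses the genotypes, and its other side joins the pair of controls with the second title number to Stat3Δ/Δ pool 3. What the title number stands for is not known here, and its part in the values was not tested. The median signal of all probe sets divided the arrays along the same line but in the reverse direction. It was higher on the arrays of the shared title number, at 381.2, 348.7 and 360.5 on Stat3Δ/Δ pools 1 and 2 and control pool 3. On Stat3Δ/Δ pool 3 and control pools 1 and 2 it was 337.7, 282.8 and 308.3.

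**Figure D3:**
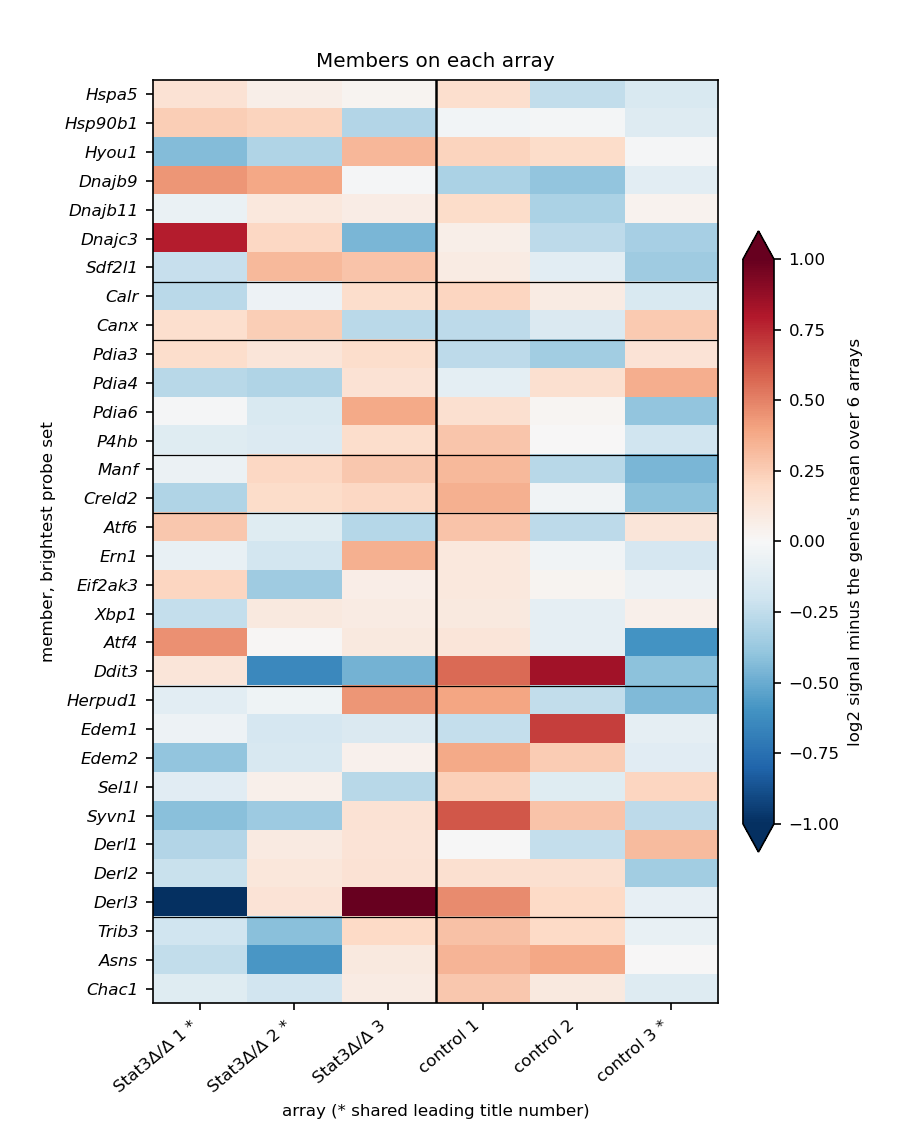
Log2 signal of each member's brightest probe set on each array less its mean over the 6 arrays, in red where above and blue where below, with a heavy line between the Stat3Δ/Δ and control pools and asterisks on the arrays of the shared title number. Black lines part the roles, and the blue cells of ER-associated degradation and of the ATF4 targets (bottom) fall mostly under the asterisks.

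Averaged over genes, the deviation from the gene's own mean ran highest on control pool 1, at 0.17, and lowest on control pool 3, at -0.12, with -0.10, -0.05 and 0.10 on Stat3Δ/Δ pools 1 to 3 and 0.01 on control pool 2. Control pool 1 was the highest array for 14 of the 32 members, where it was the highest for 27.0% of all genes, and the lowest for 1. The ER-associated degradation genes ran from -0.43 on Stat3Δ/Δ pool 1 to 0.25 on control pool 1. Derl3, at -1.82 on Stat3Δ/Δ pool 1, carried much of the first value: the other 7 genes averaged -0.23 there and 0.22 on control pool 1. The ATF4 and CHOP targets ran from -0.40 on Stat3Δ/Δ pool 2 to 0.30 on control pool 1. The HSP70 and HSP90 group had a different order, with 0.13, 0.14 and -0.01 on Stat3Δ/Δ pools 1 to 3 and 0.05, -0.17 and -0.15 on control pools 1 to 3, although Stat3Δ/Δ pool 3 lay below control pool 1.

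**Figure D4:**
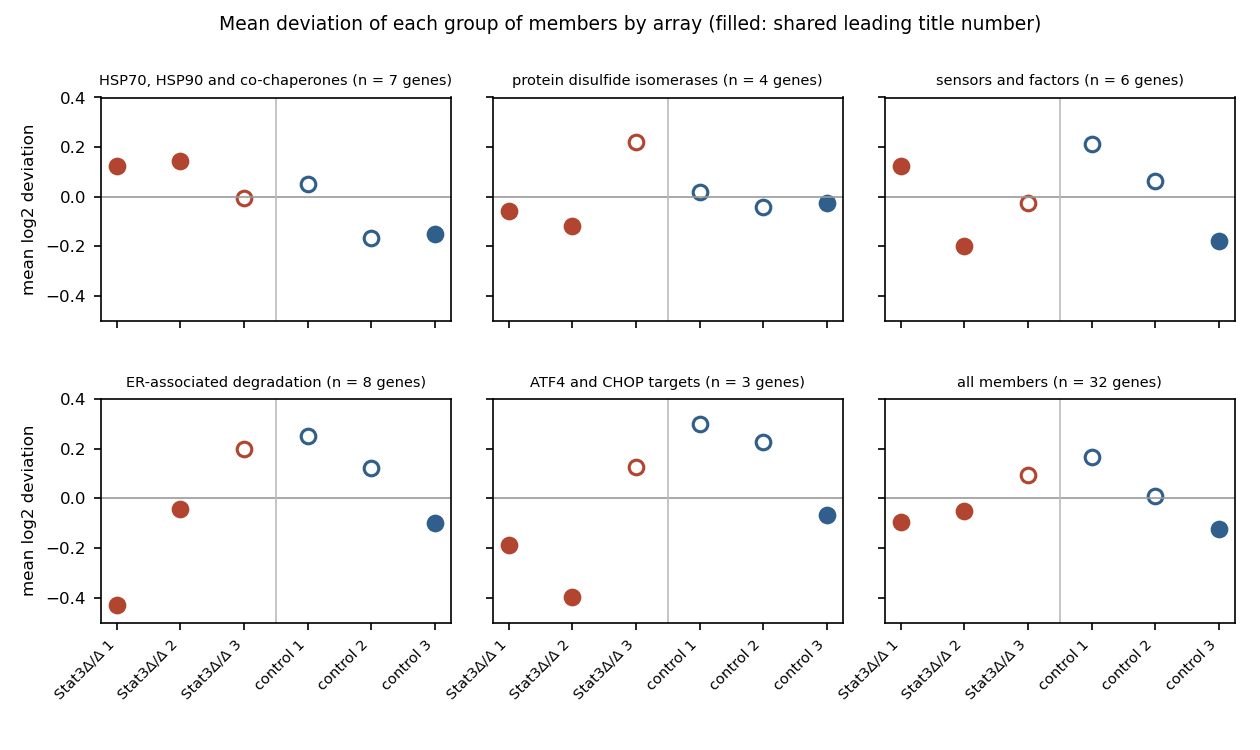
Mean log2 deviation from each gene's own mean on each array for the roles with 3 or more genes and for all 32 members, with Stat3Δ/Δ pools in red, control pools in blue and filled points for the arrays of the shared title number. In ER-associated degradation and the ATF4 and CHOP targets all filled points lie below all open ones, while the HSP70 and HSP90 group has its 2 highest means on Stat3Δ/Δ pools 1 and 2.

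Promoters of the members were read to see whether genes with the same stress element had like values. RefSeq windows of 300 bases, from 250 before to 50 after the start site in GRCm38.p6, were found for 28 of the 32 genes. For each motif the members were counted by gene and the background by window, so the shares differ in unit. The members were chosen for roles that include the stress response, so a higher share among them is not a separate result. The ER stress element, the site of ATF6 and XBP1, was searched on both strands as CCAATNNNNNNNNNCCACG and matched in 9 of the 28 (32.1%) against 0.119% of all 32851 windows. It stood in Hspa5, Hsp90b1, Dnajc3, Calr, Canx, Pdia6, Creld2, Syvn1 and Derl3. Of these, 5 are printed in 60 bases each, on the strand of the gene, with the fixed letters of the element in capitals (CGTGG and ATTGG where it lies on the other strand), because these genes gave log2 fold changes of both signs. They lie at chr2:34772005-34772064 (plus strand) for Hspa5, chr10:86705512-86705571 (minus) for Hsp90b1, chr14:118937807-118937866 (plus) for Dnajc3, chr8:84847054-84847113 (minus) for Calr and chr19:6046512-6046571 (plus) for Syvn1, all before the start site.
Hspa5: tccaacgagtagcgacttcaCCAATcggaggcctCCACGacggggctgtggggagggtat
Hsp90b1: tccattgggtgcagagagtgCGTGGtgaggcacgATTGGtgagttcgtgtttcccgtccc
Dnajc3: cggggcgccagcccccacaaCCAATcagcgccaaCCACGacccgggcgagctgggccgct
Calr: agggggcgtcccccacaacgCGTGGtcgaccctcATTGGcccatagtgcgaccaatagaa
Syvn1: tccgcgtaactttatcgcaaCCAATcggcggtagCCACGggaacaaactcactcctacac

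The 9 genes with the element had a median log2 fold change of 0.10, with 6 above 0 and values from -0.43 (Syvn1) to 0.36 (Dnajc3). The 19 genes without it had a median of -0.05. Of the 9, 4 were among the genes that lay below on the arrays of the shared title number. The second form of the element, ATTGG and CCACG with 1 base between them, matched in Dnajb11 and Herpud1 (7.14% of the members against 0.0365% of all windows), which gave 0.07 and 0.20. A STAT site, TTCNNNGAA, matched in Eif2ak3 and Edem2, 7.14% of the members against 8.3% of all windows. These matches describe letters in a window and not a bound site.

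The core of the amino acid response element, TGATGNAA, through which ATF4 acts, matched in 4 members (14.3%, against 3.97% of all windows), which were Herpud1, Trib3, Asns and Chac1. The last 3 are the targets whose probe sets all lay below 0, and the match of Trib3 falls after its start site. The 60 bases around the other matches are printed with the core in capitals, on the strand of the gene, from chr6:7693210-7693269 (minus) for Asns, chr2:119351023-119351082 (plus) for Chac1 and chr8:94386291-94386350 (plus) for Herpud1. In Chac1 and Herpud1 it lies on the other strand and reads TTGCATCA, a form found in 0.895% of all windows.
Asns: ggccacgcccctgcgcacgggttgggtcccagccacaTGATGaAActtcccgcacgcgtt
Chac1: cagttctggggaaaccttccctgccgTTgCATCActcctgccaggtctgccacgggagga
Herpud1: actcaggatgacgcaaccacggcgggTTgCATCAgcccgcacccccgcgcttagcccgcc

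The 4 genes with this core had a median log2 fold change of -0.22, with Asns (-0.49), Trib3 (-0.28) and Chac1 (-0.16) below 0 and Herpud1 (0.20) above. The 24 without it had a median of 0.04. Asns, Trib3 and Chac1 are the ATF4 and CHOP targets already given as below 0, so the lower median of the 4 is not a separate result. With the arrays centred on their medians Herpud1 turned to -0.03, so that all 4 lay below 0. That centring lowered the members in general, with 26 below 0 and 6 above. The median of all members was then -0.21, and that of all genes -0.18. Herpud1 stayed above both medians, while Asns (-0.62), Trib3 (-0.41) and Chac1 (-0.29) lay below them. The median of the 24 genes without the core is not given under that centring.

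Other genes of the same pathways lay near the median of all genes. Of 22 other ER folding genes the median was -0.12, and 1 passed the p and the fold without the FDR as lower, where 5.54% of all genes did. This was Mogs, the glucosidase that starts the trimming of N-glycans, at 1848, 2514 and 2563 in the Stat3Δ/Δ pools and 3673, 3946 and 3930.4 in the controls. Every Stat3Δ/Δ pool lay below every control pool, with a log2 fold change of -0.75 (limma SE 0.26, adjusted p = 0.522) and -0.88 within the shared title number. Of 28 other genes of the amino acid response, from a list of 30, the median was -0.09 and 1 passed as lower, again no larger a share than among all genes, Ddit4, a stress-induced inhibitor of mTOR signalling, at 6457, 7913 and 8023.5 in the Stat3Δ/Δ pools and 10553, 13294 and 11118 in the controls. Its log2 fold change was -0.62 (limma SE 0.25, adjusted p = 0.565), without overlap, and -0.67 within the shared title number.

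None passed among the 27 measured genes of ER translocation and N-glycosylation, of 29 listed, whose median was -0.00 with 13 above 0 and 14 below. The 19 measured of 20 other genes of ER-associated degradation had a median of -0.03, and 0 passed. Of the 12 cytosolic aminoacyl-tRNA synthetases, many of them targets of ATF4, 10 lay below 0, with a median of -0.12 and 0 that passed. Within the arrays of the shared title number the median of the synthetases was -0.29 and that of the other amino acid response genes 0.12, so these lists did not keep a common direction there. Each of these lists also held genes in which the arrays of the shared title number all lay below the others. Pdia5, Rpn2, Os9, Eif4ebp1 and Lars are examples, while Hspa13 and Ssr1 showed the reverse. The share in these lists is not given here, so the order is not shown to be particular to the members.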

How the data were processed

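Total RNA of isolated type II cells was hybridized to 6 MOE430 arrays. The deposited values are linear signal intensities from Affymetrix Microarray Suite 5.0, brought by the authors to a common trimmed mean. They are above 0 and not the RMA values of the study's own tests. No source used here gives a genome build. Titles and source names gave each pool its group.

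Of 45101 probe sets, 64 controls were left out. To each signal 70, the 20th percentile over all arrays, was added before log2 and quantile normalization, and limma 3.58.1 in R 4.3.3 was fitted to 45037 probe sets with a term for the group. P-values were adjusted by Benjamini and Hochberg over all of them. They measure the spread between pools, and precision is limited by the number of arrays. The platform annotation gave 34945 probe sets 1 gene, 932 several and 9160 none. The fit was tested on simulated data with known changes. The leave-one-out fits, which leave 2 arrays in a group, pool the variance across groups.

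All members were named. Signals on every array were given for members whose brightest probe set had a p of at most 0.05 or groups without overlap, for other member probe sets that passed the p and the fold, and for 8 sensors, factors and chaperones whatever their values. Calr, Canx, Pdia3, Dnajc3, Sel1l, Syvn1, Derl3, Asns, Trib3, Chac1, Ern1 1421240_at and Ddit3 1443897_at were given further signals after their values were seen. The members and lists were chosen with earlier results of these data known. Alternatives changed the added value, the normalization, the test and its variance model, a filter on low signal, the array weights, the averaging of probe sets, blocks on pool and title number and the arrays used. Protein sequences were not analysed here. Tables and plots came from Python 3.11.15 with numpy 2.4.6, pandas 2.3.3 and matplotlib 3.10.9.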

Additional observations from a re-analysis of the deposited data

How the results depend on the processing

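No member probe set passed the FDR under any alternative run. The count that passed the p and the fold as higher, 6, was 3 within the arrays that share the leading title number, with that number as a fixed block, with no added value, with the added value at the median signal and in the methods' t-test, between 2 and 5 when single pools were left out, 7 with probe sets limited to a mean above the median and 8 with array weights. The count that passed as lower, 1, was 3 with array weights, 0 with probe sets limited to a mean above the 20th percentile and 0 in the methods' t-test, and between 0 and 2 when single pools were left out. The median over the 32 genes, -0.04, was -0.21 with arrays centred on their medians, 0.07 with all probe sets of a gene averaged, and between -0.09 and 0.04 when single pools were left out. With the replicate block, the pool number as a block, 5 member probe sets passed as higher and 0 as lower, and the median stayed at -0.04. Deviations of same-numbered pools correlated at -0.08, -0.01 and -0.24, and those of other pairs at -0.14 to 0.19. Deviations from a mean of 3 pools sum to 0, so these values cannot show whether the pools were paired. Of the 32 genes, 9 changed sign with arrays centred on their medians and 0 to 5 in each of the other alternatives. The cause of these changes was not tested. The shares of all probe sets under each alternative are not given, so the counts above cannot be read as a trait of the members. With 3 arrays a group, standard errors of member genes were 0.24 to 0.65, and the signals of dim probe sets lie near the added value.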
